A study of Rattus norvegicus with 12 samples.

Results

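Drug-metabolising enzyme genes were examined in whole lung of 12 male Wistar rats, with 1 Affymetrix RAE 230A array per animal. Members were the genes whose symbol in the platform annotation began with Cyp or Fmo and a digit, with Ugt, or with Sult, apart from the sterol demethylase Cyp51, and for which a probe set named that gene alone. This gave 73 of the 10411 genes named on the array: 52 cytochromes P450 (CYP), 1 flavin-containing monooxygenase (FMO), 7 UDP-glucuronosyltransferases (UGT) and 13 sulfotransferases (SULT). Where a gene had several probe sets, the one with the highest mean log2 signal stood for it. The 5 control (normal) animals received buffer into the peritoneum at 8 weeks of age. The 7 diabetic animals received streptozotocin, a toxin of the insulin-producing beta cells, at the same age, and so had 4 weeks of diabetes. Animals of both groups were 12 weeks old, fasted overnight and anaesthetised with the same agents when the lungs were taken. A direct action of the toxin on the lung cannot be told apart from that of diabetes, since the design holds no animals that received it without becoming diabetic.

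Cytochromes P450 are haem enzymes, most of them in the endoplasmic reticulum, that insert oxygen into drugs, inhaled pollutants, fatty acids, steroids and vitamins. Those in the endoplasmic reticulum take electrons from the reductase encoded by Por. Flavin-containing monooxygenases oxidise nitrogen and sulfur centres, and sulfotransferases and glucuronosyltransferases attach sulfate or glucuronic acid so that the products can be excreted. The liver carries most of these enzymes, while the lung has its own set, best known in the club cells of the bronchioles and in alveolar type II cells.

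Values are MAS 5.0 signals, linear intensities with 1 value for each probe set in each animal. Markers of lung epithelium were bright, with mean signals of 24760 for the type II cell gene Sftpc and 21504 for the club cell gene Scgb1a1, and the hepatocyte gene Alb had 86.8 ± 25.6 (SD, n = 5) in the controls and 77.3 ± 8.98 (SD, n = 7) in diabetic lung. The median signal per array lay between 259.6 and 272.0 for the controls and between 252.7 and 265.6 for the diabetic group. RNA degradation raises the ratio of 3' to 5' signal of the GAPDH control probe sets. This ratio was 1.32 ± 0.0778 (SD, n = 5) in the controls and 1.15 ± 0.0710 (SD, n = 7) in the diabetic group (two-sided exact permutation test, p = 0.00505), and its part in the results was not tested. The same ratio for beta-actin was 2.06 ± 0.437 (SD, n = 5) and 2.08 ± 0.372 (SD, n = 7) (two-sided exact permutation test, p = 0.920). Diabetic animal 6 had the highest GAPDH and beta-actin ratios of its group, 1.30 and 2.85. Whole lung was measured, so fewer cells of a type and less RNA per cell cannot be told apart.

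Of the 73 genes, 18 had a mean signal above 170, the level under which 40% of all probe sets lie. They were 15 P450 genes (13 of families 1 to 4, and Cyp27a1 and Cyp27b1), Fmo1 and the sulfotransferase genes Sult1a1 and Sult5a1. None of the 7 UGT genes reached it. The genes just above were Cyp2c23 (mean signal 209), Cyp3a9 (202) and Cyp27b1 (178), and those just below were Cyp8b1 (144), Cyp2t1 (138) and Cyp26b1 (134). Brightness of different probe sets is not a measure of relative mRNA amount, so the order of the genes is that of their probe sets. A signal under 170 is not a call of absence.

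**Figure D1:**
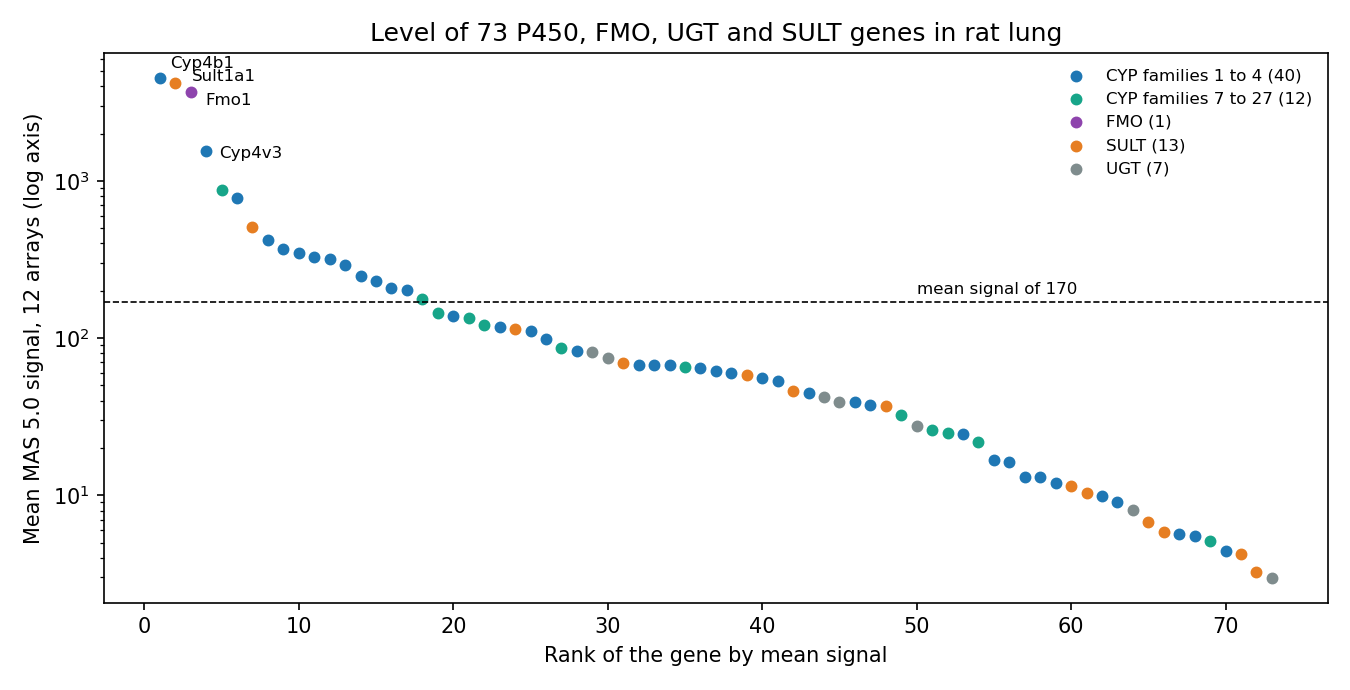
Mean MAS 5.0 signal over the 12 arrays (log axis) of the 73 genes against their rank by that signal, coloured by enzyme family, with the signal of 170 as a dashed line. The 18 genes above the line are P450, FMO and SULT genes, and all 7 UGT genes lie below it.

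In diabetic against control lung, 0 of the 18 genes passed an adjusted p of 0.05 in limma, against 16 of the 9520 probe sets tested (0.168%). At an unadjusted p under 0.05, 2 of the 18 (11.1%) differed, Cyp4b1 with a lower and Sult1a1 with a higher mean in diabetic lung. That share is near the background, since 1564 of all tested probe sets (16.4%) were at this level. The median log2 change of the 18 genes was 0.06, with 11 above and 7 below 0, and that of all tested probe sets was -0.01. For 0 of the 18 did the signals of the groups not overlap (background 2.04% of tested probe sets).

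The windows before the start sites of 4 genes are shown as a description, and no result on signals rests on them. The genes were chosen by their signals: Cyp4b1 and Sult1a1 had an unadjusted p under 0.05, and Cyp2e1 and Cyp2a3 had far higher signals in single diabetic animals, as described below. The sequences are the 100 bases before the first RefSeq start listed for each gene (build GRCr8), 5' to 3' on the strand of the gene. For Cyp4b1 this start lay inside the gene, which spans 134375807 to 134413635, so it is not the outermost start. The windows of Sult1a1, Cyp2e1 and Cyp2a3 border the gene. Capitals mark TATAA, the core of the TATA box, on either strand.
Cyp4b1 (chr5:134393117-134393216, minus strand): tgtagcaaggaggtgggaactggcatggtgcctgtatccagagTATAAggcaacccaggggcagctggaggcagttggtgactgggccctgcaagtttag
Sult1a1 (chr1:190706113-190706212, minus strand): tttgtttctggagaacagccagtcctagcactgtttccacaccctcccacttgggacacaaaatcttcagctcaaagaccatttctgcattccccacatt
Cyp2e1 (chr1:205269867-205269966, plus strand): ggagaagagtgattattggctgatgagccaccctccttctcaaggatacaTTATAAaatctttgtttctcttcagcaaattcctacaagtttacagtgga
Cyp2a3 (chr1:91299484-91299583, plus strand): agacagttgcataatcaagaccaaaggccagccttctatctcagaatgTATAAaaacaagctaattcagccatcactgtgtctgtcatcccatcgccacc
The match began 57, 49 and 52 bases before the start used in Cyp4b1, Cyp2e1 and Cyp2a3, and in Cyp2e1 it lay on both strands, as TTATAA. The window of Sult1a1 held none. Of the 58 member genes with a listed promoter, 25 held the letters within 100 bases, as did 4 of 16 genes above a signal of 170 (the fourth was Cyp27b1). Of all 33469 promoters 11.0% held them. A gene was counted if any of its listed starts held the letters, whereas all promoters were counted start by start. The shares are therefore of unlike units, and no enrichment can be read from them. A match is a description of the letters, not of a site in use.

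Cyp4b1, a P450 of lung epithelium that hydroxylates medium-chain fatty acids and activates the lung toxin ipomeanol, had signals of 5534, 4255, 4509, 6181 and 5530.5 in the 5 control animals. In the 7 diabetic animals it ranged from 3649.5 to 4573 with a median of 4199. The diabetic values filled a narrow band that reached into the lower control values, those of control 2 and 3, so the groups overlapped. The means were 5202 ± 799 (SD, n = 5) and 4128 ± 354 (SD, n = 7), a fold change of -1.26. The log2 change was -0.32 (SE 0.10, 95% interval -0.53 to -0.12; limma, unadjusted p = 0.00382, adjusted p = 0.123). It kept an unadjusted p under 0.05 without each of the 12 animals in turn, with log2 changes of -0.39 to -0.26.

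Cyp2f4 is a P450 that activates naphthalene in club cells. Its signals were 938, 777, 848, 1126 and 705 in control lung, and 490 to 974 with a median of 683 in diabetic lung. The range of the diabetic animals covered all control animals but control 4, and the log2 change was -0.26 (SE 0.16, 95% interval -0.60 to 0.08; limma, adjusted p = 0.433). A probe set that names both Cyp2b1 and Cyp2b2, and so belongs to neither, had 7358 ± 1006 (SD, n = 5) in the controls and 5767 ± 1121 (SD, n = 7) in diabetic lung (log2 change -0.37, SE 0.13, limma, unadjusted p = 0.0155, adjusted p = 0.199). Of 11 club cell markers 5 were on the array and 1, Scgb1a1, was above a signal of 170. Their summed signal lay between 20070 and 23854 in control animals and was 18969 to 28647 in diabetic animals (two-sided exact permutation test, p = 0.888, and adjusted p = 0.888 over 8 lists of cell type markers). Of these lists the 12 fibroblast markers differed most, with sums of 28070 to 32238 in control and 23307 to 28333 in diabetic animals (p = 0.0139 in the exact test, adjusted p = 0.111). The 12 did not move as one, with 8 log2 changes below 0 and 4 above. At an unadjusted p under 0.05 in limma 7 were lower and 2 higher (75.0% of the list, background 16.4%). The brightest, Col3a1 (mean signal 5898), weighs most in the sum.

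Sult1a1 encodes the phenol sulfotransferase, which conjugates simple phenols and drugs such as paracetamol. Its signals were 3098, 3280, 3140, 2941 and 5049 in control animals 1 to 5. In diabetic animals they ranged from 2458 in animal 5 to 8090 in animal 6, with a median of 4704. Of the 7 diabetic animals, 6 lay above 4 of the control animals, while control 5 lay among the diabetic values and diabetic 5 below all controls. The means were 3502 ± 874 (SD, n = 5) and 5230 ± 1943 (SD, n = 7), a fold change of 1.49. The log2 change was 0.52 (SE 0.24, 95% interval 0.01 to 1.02; limma, unadjusted p = 0.0464, adjusted p = 0.297). Its unadjusted p was under 0.05 in 4 of the 12 fits that left out 1 animal (control 5, or diabetic 4, 5 or 7) and above it in the others, and the log2 change was 0.39 without diabetic 6 and 0.68 without diabetic 5.

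Sult5a1, a sulfotransferase of little known substrate, had 418, 622, 571.5, 571 and 462 in control lung, and 406 to 574 with a median of 524 in diabetic lung. All but 1 of the diabetic animals lay within the range of the controls, and the means were 529 ± 85.0 (SD, n = 5) and 503 ± 60.7 (SD, n = 7). Fmo1, the flavin-containing monooxygenase of rodent lung and liver, had 3837, 4227, 3902, 3723 and 3075 in control and 3154 to 3980 with a median of 3625 in diabetic lung. It was the steadiest of the 18 genes, with an SD within groups of 0.14 on the log2 scale against a median of 0.19 over all tested probe sets. Its log2 change was -0.04 with a 95% interval of -0.21 to 0.14.

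**Figure D2:**
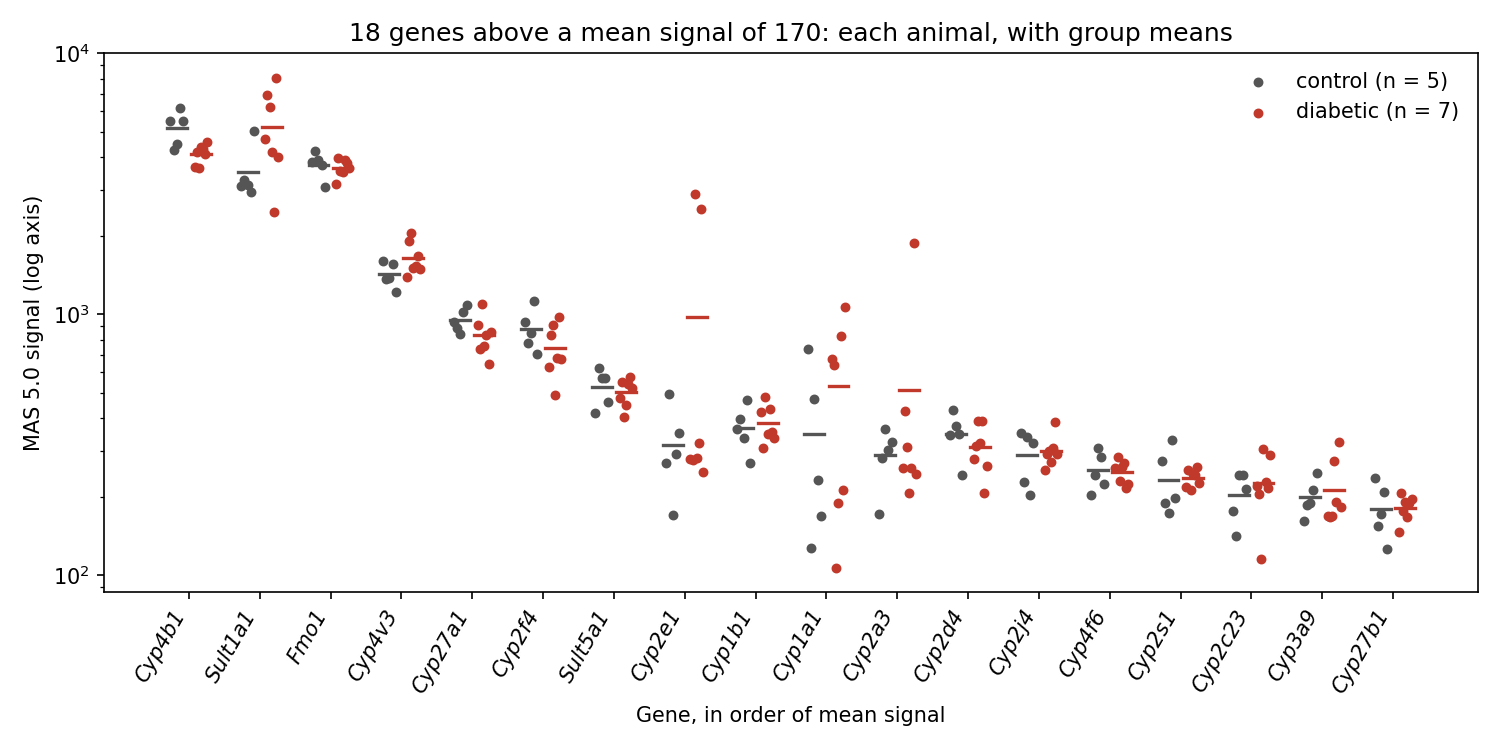
MAS 5.0 signal (log axis) of the 18 genes with a mean signal above 170 for every animal (5 control in grey, 7 diabetic in red), with group means as lines. Most genes overlap closely between groups, and single diabetic animals lie far above the rest for Cyp2e1 (2906 and 2529.5) and Cyp2a3 (1873).

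Some members differed widely between animals of the same group. Cyp2e1 oxidises ethanol, acetone and small solvents, and in liver its protein is known to be raised by fasting and diabetes. Its signals in control animals 1 to 5 were 270.5, 494, 171, 291.5 and 352. Of the diabetic animals 5 had 248 to 320.4, within the control range, whereas diabetic 3 had 2906 and diabetic 6 had 2529.5. The lower of these was 5.12 times the highest signal of the other 10 animals. Their presence set the group mean of 977 ± 1194 (SD, n = 7), against 316 ± 119 (SD, n = 5) in control. The log2 change of 0.85 (SE 0.61, 95% interval -0.46 to 2.15; limma, adjusted p = 0.519) was -0.09 without these 2 animals, a comparison chosen after the values were seen.

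The liver is the main site of Cyp2e1. Of 14 hepatocyte markers 2 (Fgg and Serpina1) were above 170, and Fgg, with a mean signal of 1683, weighs most in their sum. The summed signal of the 14 was 3319 in diabetic 3 and 2866 in diabetic 6. The lowest and highest sums of the diabetic group, 2574.5 and 3984, came from other diabetic animals. In controls the sum was 2724 to 3169, so diabetic 3 lay above all controls and diabetic 6 among them. Por, the electron donor of these P450 enzymes, was chosen for display after its values were seen. It had 1316 in diabetic 3 and 2166 in diabetic 6, and 675 to 1057 in the other 10 animals, so both stood above the rest for this gene as well. The log2 change of Por between groups was 0.41 (SE 0.21, limma, adjusted p = 0.331).

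Cyp2a3, a P450 of nasal and lung tissue that acts on nicotine-like compounds and coumarin, stood apart in 1 animal. Its signals were 171.5, 281, 363, 302 and 325 in control lung. Diabetic 6 had 1873, which was 4.38 times the highest of the other 11 animals, and the other 6 diabetic animals had 207 to 428. The log2 change was 0.38 (SE 0.42, limma, adjusted p = 0.699), and -0.02 without diabetic 6.

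Cyp1a1, the P450 that the aryl hydrocarbon receptor induces in response to polycyclic aromatic compounds, varied in both groups. It had 739.5, 128, 475, 232 and 169 in control animals 1 to 5. In diabetic animals it ranged from 107 in animal 3 to 1066 in animal 7, with a median of 637. High and low animals occurred in either group, and the highest of the 12 signals was 9.94 times the lowest. The log2 change was 0.51 (SE 0.57, 95% interval -0.69 to 1.71; limma, adjusted p = 0.695). Leaving out 1 animal at a time gave 0.23 (without control 2) to 0.86 (without control 1), with 0.27 without diabetic 7. Without diabetic 3 and 6, the animals chosen for their Cyp2e1, it was 1.07. Both were also below the diabetic median for Cyp1a1 (107 and 213), so leaving them out raises the change and is not a test of it. Cyp1b1, another target of the receptor, had 365, 397, 335, 469 and 270.5 in control lung, and 308 to 481 with a median of 354 in diabetic lung. The groups lay in much the same range, with means of 367 ± 73.7 (SD, n = 5) and 383 ± 62.7 (SD, n = 7). Its SD within groups on the log2 scale was 0.26, against 1.19 for Cyp1a1. Ahr, the gene of the receptor itself, had 348 ± 17.7 (SD, n = 5) and 293 ± 42.9 (SD, n = 7) (log2 change -0.26, limma, adjusted p = 0.240).

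**Figure D3:**
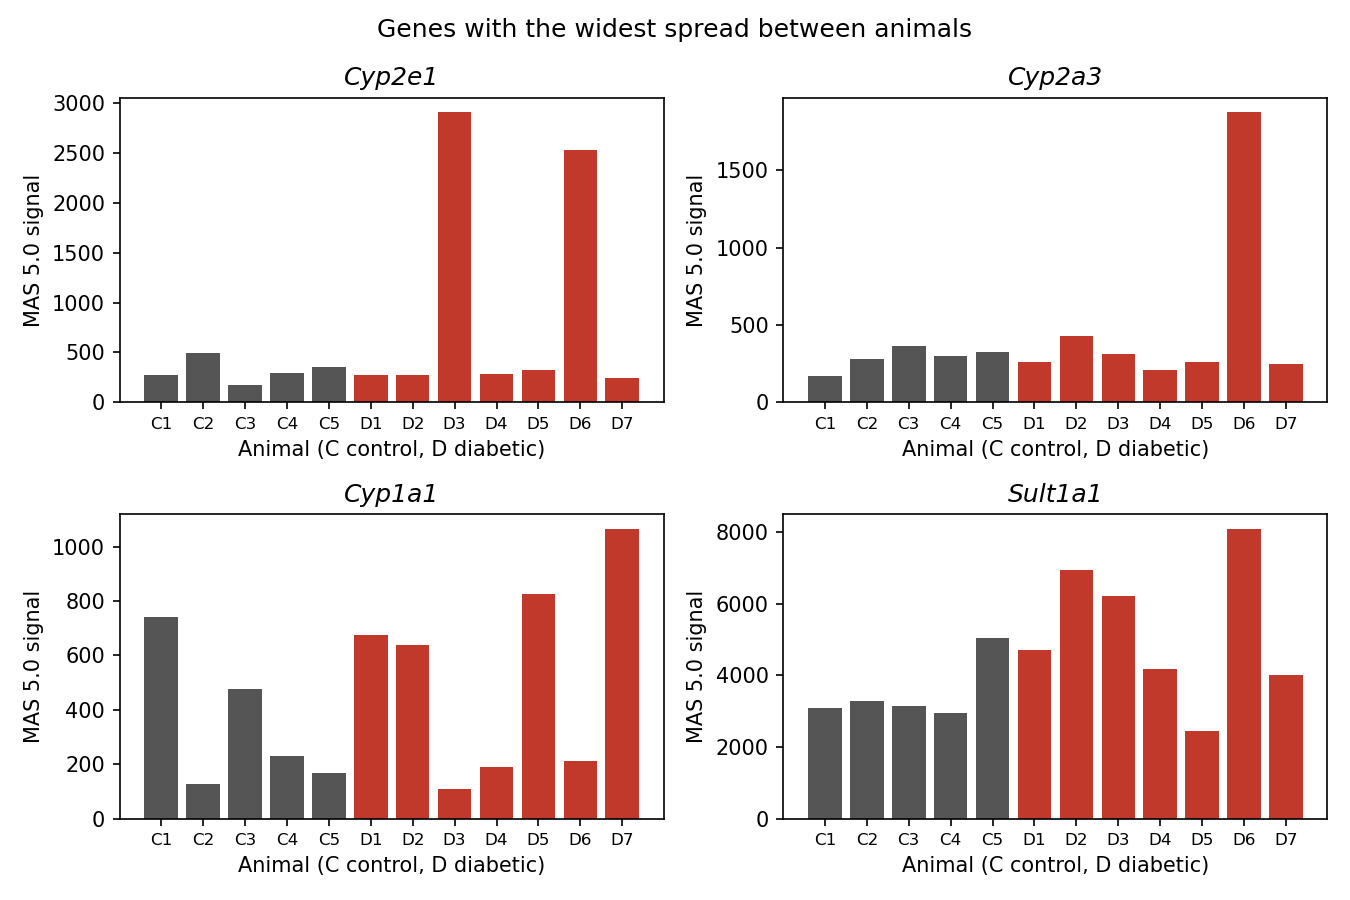
MAS 5.0 signal of Cyp2e1, Cyp2a3, Cyp1a1 and Sult1a1 in each animal (control C1 to C5 grey, diabetic D1 to D7 red; bars start at 0). Diabetic 3 and 6 stand apart for Cyp2e1 and diabetic 6 for Cyp2a3, while high and low Cyp1a1 signals occur in both groups.

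On the log2 scale, the SD between animals of one group was 1.29 for Cyp2e1, 1.19 for Cyp1a1 and 0.89 for Cyp2a3. These are larger than the SD of 99.9%, 99.9% and 99.7% of the 9520 tested probe sets. Sult1a1 followed at 0.49 (larger than 97.7%) and Cyp2c23 at 0.41 (95.5%). The other 13 genes had 0.14 to 0.33. Over the 153 pairs of the 18 genes the median absolute Pearson's r across the 12 arrays was 0.23, given as a description. The largest was 0.68, for Cyp2s1 and Cyp27b1. The signals of Cyp2e1 and Cyp2a3 shared their high value in diabetic 6 (r = 0.60), and Cyp2e1 and Cyp1a1 had r = -0.59. Both pairs were picked from the 153 and hold Cyp2e1, for which diabetic 3 and 6 stood far apart, so neither is read as a relation between the genes.

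**Figure D4:**
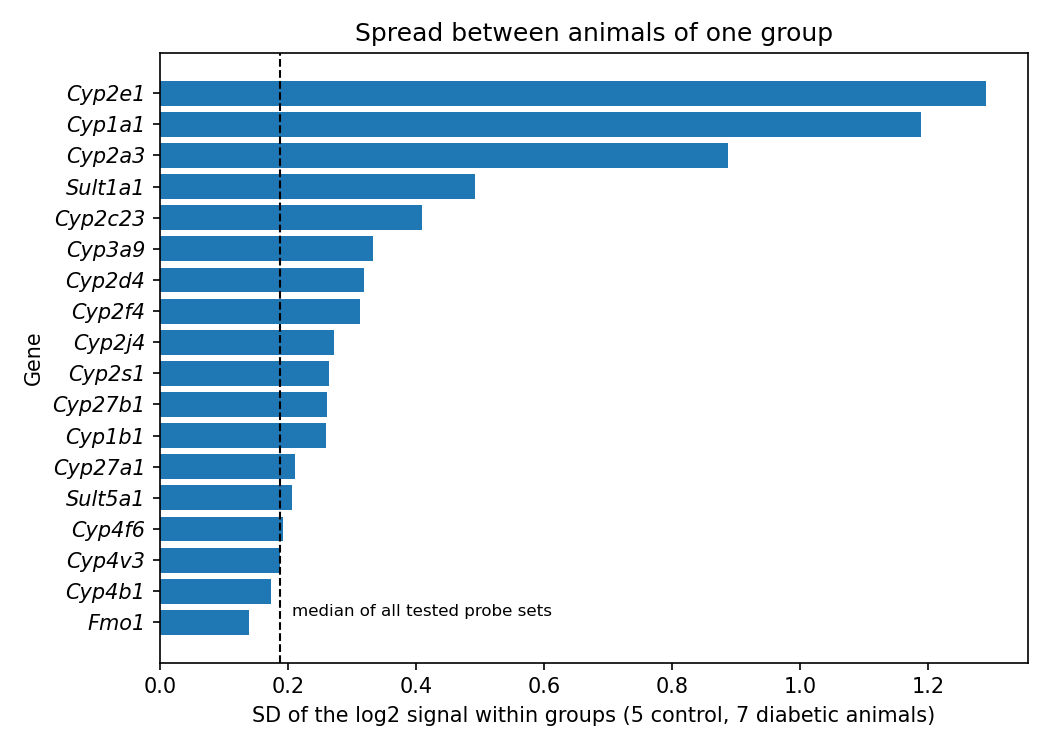
SD of the log2 signal within groups (5 control and 7 diabetic animals) of the 18 genes, with the median of all tested probe sets (0.19) as a dashed line. Cyp2e1, Cyp1a1 and Cyp2a3 lie furthest to the right, at 1.29, 1.19 and 0.89.

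Among genes of fatty acid and eicosanoid oxidation, Cyp4v3, a fatty acid omega-hydroxylase, had 1596.5, 1373, 1376, 1563 and 1219 in control lung, and 1387 to 2047 with a median of 1538 in diabetic lung. The means were 1425 ± 155 (SD, n = 5) and 1652 ± 243 (SD, n = 7). Diabetic 2, 3 and 6, with 1918, 2047 and 1668, lay above all controls, and the other 4 lay within their range. The log2 change was 0.21 (SE 0.10, limma, adjusted p = 0.331). Its dimmer probe set, with a mean signal of 133, had a log2 change of -0.24 (SE 0.15, fit without a filter, adjusted p = 0.546), so the probe sets differ in direction. The arachidonic acid epoxygenase genes Cyp2j4 and Cyp2c23 had log2 changes of 0.08 (95% interval -0.23 to 0.40) and 0.12 (-0.32 to 0.57). Cyp4f6, of the leukotriene-hydroxylating 4F subfamily, had -0.01 (-0.27 to 0.24). Group mean signals were 289 and 301 for Cyp2j4, 203 and 225 for Cyp2c23, and 253 and 248.5 for Cyp4f6 in control and diabetic lung.

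Of the remaining xenobiotic P450 genes, Cyp2d4, the brain member of the 2D subfamily, had 348 ± 68.6 (SD, n = 5) in the controls and 309 ± 66.8 (SD, n = 7) in diabetic lung (log2 change -0.18). A second probe set of it had 177 ± 13.9 and 213 ± 54.1 (log2 change 0.23, limma, adjusted p = 0.465), again in the opposite direction. Mean signals of Cyp2s1, a P450 found mostly outside the liver, were 233 in control and 237 in diabetic lung, and those of Cyp3a9, a relative of the main drug-metabolising 3A enzymes, were 199 and 212. Their log2 changes were 0.07 and 0.05.

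Cyp27a1, the mitochondrial sterol 27-hydroxylase, had 940, 887, 843, 1025 and 1083 in control lung. The diabetic animals ranged from 645 to 1093 with a median of 833, and 4 of the 7 lay below all controls. The log2 change was -0.21 (SE 0.11, 95% interval -0.45 to 0.03; limma, adjusted p = 0.368). Cyp27b1, which completes the activation of vitamin D, had mean signals of 179 and 182. The upper ends of the 95% intervals were 2.15 for Cyp2e1, 1.71 for Cyp1a1 and 1.28 for Cyp2a3, and the data do not exclude differences of that size.

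**Figure D5:**
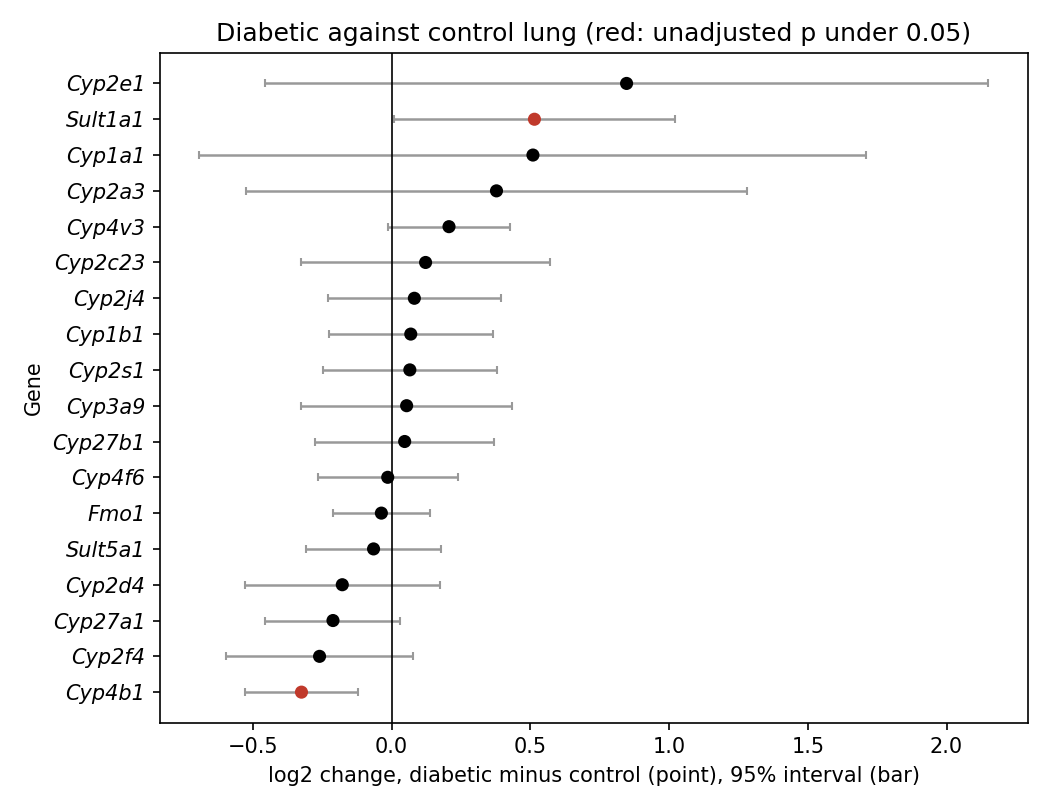
Points give the log2 change (diabetic minus control) of the 18 genes, and bars the 95% interval from limma. Cyp4b1 and Sult1a1 in red had an unadjusted p under 0.05, none passed after adjustment, and the widest intervals are those of Cyp2e1, Cyp1a1 and Cyp2a3.

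The 55 genes under a signal of 170 were compared in a fit without a filter, in which 0 passed an adjusted p of 0.05 (background 0%) and 4 (7.27%) had an unadjusted p under 0.05. Among the 6346 probe sets under the filter 7.15% did so, so the share is that of dim probe sets in general. These 4 were Cyp26b1, which degrades retinoic acid, Cyp21a1, the adrenal 21-hydroxylase, Sult6b2 and Ugt2b35. Cyp26b1 had 31.2, 103, 88.9, 132 and 186.5 in control and 119 to 269.6 with a median of 164 in diabetic lung (log2 change 0.90, SE 0.34, unadjusted p = 0.0194, adjusted p = 0.292). All 7 diabetic animals lay above 3 of the controls, and control 4 and 5 lay among them. Ugt2b35 had 36.9 to 78.6 in the controls and 1.10 to 36.3 in diabetic lung, the single member for which the groups did not overlap (background 0.394% of probe sets under the filter; adjusted p = 0.387). Sult6b2 had means of 64.4 ± 15.7 (SD, n = 5) and 38.9 ± 12.9 (SD, n = 7). Cyp21a1 had 12.7 to 16.0 in 4 control animals and 82.9 in control 5, against 20.1 to 60.8 in diabetic lung.

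The other genes under 170 follow by family. The 27 P450 genes of families 1 to 4 had mean signals of 4.41 to 138, and none had an unadjusted p under 0.05. They were Cyp1a2, the testosterone hydroxylase genes Cyp2a1 and Cyp2a2, Cyp2b3, Cyp2b12 and Cyp2b21, the 2C genes Cyp2c6v1, Cyp2c7, Cyp2c11, Cyp2c12, Cyp2c13 and Cyp2c22 (of which Cyp2c11 is known as male-specific and Cyp2c12 as female-specific in rat liver), Cyp2d2 and Cyp2d3, the olfactory gene Cyp2g1, Cyp2j3, Cyp2t1, the 3A genes Cyp3a2, Cyp3a18 and Cyp3a23-3a1, the fatty acid hydroxylase genes Cyp4a1, Cyp4a3 and Cyp4a8, and Cyp4f1, Cyp4f4, Cyp4f5 and Cyp4f17. The steroid, bile acid and retinoid genes had 5.13 to 144 and were, beside Cyp21a1 and Cyp26b1, Cyp11a1, Cyp11b1, Cyp17a1, the aromatase gene Cyp19a1, the bile acid genes Cyp7a1, Cyp7b1 and Cyp8b1, and Cyp26a1. The 11 sulfotransferase genes had 3.24 to 115, and beside Sult6b2 were Sult1b1, Sult1c2a, Sult1c3, Sult1d1, the estrogen sulfotransferase gene Sult1e1, Sult2a1, Sult2a2, Sult2a6, the cholesterol sulfotransferase gene Sult2b1 and the brain gene Sult4a1. The UGT genes Ugt2a1, Ugt2b, Ugt2b1, Ugt2b7, Ugt2b15, Ugt2b35 and Ugt8, the last for galactolipids of myelin, had 2.99 to 81.3. Further probe sets name several genes of these families, 9 in all, and none of their genes can be told apart. One that names 8 genes of the Ugt1a cluster had a mean signal of 534 (log2 change -0.22, limma, adjusted p = 0.314). Another that names the same genes had 263 (log2 change 0.045, limma, adjusted p = 0.897), in the opposite direction. Glucuronosyltransferase signal above 170 was therefore present although no gene named alone had it.

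Genes that serve these enzymes were described from lists by function, in limma over all tested probe sets. In each of the 5 lists 0 genes passed an adjusted p of 0.05, and the median log2 changes were -0.12 to 0.00, beside -0.01 for all tested probe sets. The share of each list at an unadjusted p under 0.05 is given beside the 16.4% of all tested probe sets, and higher and lower below refer to this unadjusted level. Of 16 genes of electron donors, epoxide hydrolases and haem synthesis tested, 4 were lower in diabetic lung and 0 higher, at an unadjusted p under 0.05 (25.0% of the list; background 8.68% lower and 7.75% higher). These were the ferrochelatase gene Fech, which completes haem (592 ± 93.4 (SD, n = 5) and 394 ± 168 (SD, n = 7)), the haem synthesis gene Alad, and the electron transfer genes Cyb5b and Cyb5r3. Over the whole list 8 log2 changes were above 0 and 8 below. The haem synthesis genes did not share a direction, since Alas1 had 0.40 (SE 0.23, limma, adjusted p = 0.388) and Urod -0.02. Of 14 genes of xenobiotic receptors and partners, 2 were higher and 1 lower (21.4%). Nfe2l2, the NRF2 regulator of oxidant defence, had 1529 ± 89.9 and 1808 ± 82.1 without overlap (log2 change 0.24, SE 0.06, adjusted p = 0.0926), the lung epithelial factor gene Foxa2 had 700 ± 65.4 and 923 ± 127, and Ahr was the lower one. The drug receptor genes Nr1i2 and Nr1i3 were under 170, with means of 112 and 119 and of 65.4 and 66.3.

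Of 24 other phase I genes, 3 were lower and 1 higher at an unadjusted p under 0.05 (16.7%, near the background of 16.4%). Aldh1a1, a retinal and aldehyde dehydrogenase of airway cells, had 5968.5, 6432, 5327, 7127 and 7249 in control and 2842 to 5032 in diabetic lung, without overlap (log2 change -0.61, SE 0.14, limma, unadjusted p = 0.000591, adjusted p = 0.0729). The lowest of these were diabetic 3 and diabetic 6, with 2842 and 3250.1. The quinone reductase gene Nqo1 had 1312 ± 60.5 (SD, n = 5) and 1125 ± 102 (SD, n = 7), and the lactonase gene Pon2 2631 ± 131 and 2297 ± 257. The aldehyde oxidase gene Aox1 was the higher one, with 258 ± 70.2 and 364 ± 76.9. Of 18 genes of cosubstrate supply and other conjugation, the methyltransferase gene Inmt, also on the list of fibroblast markers, was higher (log2 change 1.14, SE 0.29) and the nucleotide sugar transporter gene Slc35b1 lower (-0.31, SE 0.09), which is 11.1% of the list (adjusted p = 0.0903 and 0.106 in limma). Papss1 and Papss2, which make the sulfate donor of the sulfotransferases, had log2 changes of 0.11 and -0.02, and Ugdh, which makes that of the glucuronosyltransferases, 0.09. Of 9 transporter genes, 2 (22.2%) were at this level, the peptide transporter gene Slc15a2 with a log2 change of 0.32 (limma, unadjusted p = 0.0171, adjusted p = 0.202) and the efflux pump gene Abcc1 with -0.24 (unadjusted p = 0.0421, adjusted p = 0.285).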

How the data were processed

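Lung RNA of 12 rats was hybridized to RAE 230A arrays. The authors made 1 signal per probe set with MAS 5.0. Their scaling target is not given in the sources used here, and the 2% trimmed mean of the signals was 500.1 on each array. The deposited values, an intensity on a linear scale, were transformed to log2 after 1 value at or below 0 was set to 0.1. The version of the annotation that the authors used is not given in the sources used here.

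The comparison of diabetic with control lung used limma 3.58.1 under R 4.3.3, with two-sided moderated tests whose prior variance followed signal intensity. It covered the 9520 probe sets left after removal of 57 control probe sets and of the dimmest 40% by mean log2 signal, and p-values were adjusted by Benjamini-Hochberg over all of them. The means quoted over 12 arrays are of log2 signals, transformed back. Fold change was the ratio of group mean signals, negative where the diabetic mean was the lower. As a check of the code, the fit was run on simulated normal values, which hold no animals far apart from their group. Of the member genes, 72 of 73 were found in RefSeq by Entrez ID, and sequences came from RefSeq (GRCr8). The study's BAMarray test was replaced by limma, and the present and absent calls were not used here. Plots came from matplotlib 3.10.9 (python 3.11.15).

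All 18 genes above a mean signal of 170 are named, with signals in the arrays for the 10 brightest and those at an unadjusted p under 0.05 (each control, and the range and median or single animals of the 7 diabetic). Genes under it are named, with values at an unadjusted p under 0.05 or nearest to 170. Of related lists, genes at an unadjusted p under 0.05 are named (at most 8 a list). The members and lists were chosen with earlier results of these data known. Alternatives changed the scaling, pseudocount (22.3), filter, variance trend, weighting of arrays or probe set, added the replicate number as a block, or left out each animal. Precision is limited by how many arrays there are.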

Additional observations from a re-analysis of the deposited data

Results flagged for a closer look

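Across 50 groups of signals or ratios checked by Dixon's test at 95%, 5 held 1 animal set apart. Its gap to the nearest other animal was too large a part of the group's range. For normal and independent values chance alone gives about 1 in 20 groups. The signals here were on the linear scale and came from the same animals, so the count of 5 cannot be compared with that rate. For Sult1a1, control 5 had 5049, above the other controls. For Cyp2a3, diabetic 6 had 1873, and for Cyp2j4 the same animal had 387, each the highest of the diabetic group. Diabetic 6 also had the highest GAPDH 3' to 5' ratio of its group, 1.30. For Cyp21a1, a dim probe set, control 5 had 82.9 and the other 4 controls 12.7 to 16.0. The 2 high Cyp2e1 signals of diabetic 3 and 6 were not set apart by this test, which looks for a single animal.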

How the results depend on the processing

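Across all alternatives 0 of the genes above the signal minimum passed an adjusted p of 0.05 in limma. The count at an unadjusted p under 0.05, 2 genes, was 1 (Cyp4b1) without a filter, without an intensity trend and with the replicate number as a block, and 1 to 2 without each animal in turn (1 without control 2, control 3 or diabetic 2). With median centring it was 3, with Cyp4v3 added. In 5 of the fits without 1 animal the gene beside Cyp4b1 was not Sult1a1: it was Cyp4v3 without control 1, control 4 or diabetic 1, Cyp27a1 without diabetic 3 and Cyp2f4 without diabetic 6. It was 4 (Cyp4b1, Cyp27a1 and Cyp2f4 lower, Cyp1a1 higher) without diabetic 3 and 6. That alternative was chosen after seeing the data and also drops low Cyp1a1 signals of the diabetic group. The median log2 change of 0.06 was -0.051 with 60% of probe sets removed, where 8 genes were left, and -0.0074 to 0.096 without each animal. At a minimum signal of 340 in place of 170, 10 genes remained above it, and with control arrays or arithmetic means 18. On the log2 scale, Cyp4f6, at -0.01, turned to 0.013 with median centring, 0.017 with quantile normalization, 0.054 with the block, 0.046 without diabetic 3 and 6, and ranged from -0.087 to 0.063 without each animal. Without diabetic 3 and 6, Cyp2e1 turned to -0.089, Cyp2a3 to -0.049 and Cyp3a9 to -0.024, and Cyp3a9 was -0.047 with the block. Leaving out each animal gave ranges that cross 0 for Cyp3a9 (-0.057 to 0.13), Fmo1 (-0.11 to 0.0084), Cyp2s1 (-0.030 to 0.20), Cyp2j4 (-0.035 to 0.16), Cyp1b1 (-0.035 to 0.16), Cyp27b1 (-0.070 to 0.16) and Cyp2a3 (-0.016 to 0.51). The second probe sets of Cyp2d4 and Cyp4v3 had 0.23 and -0.24. The cause was not tested. Same-numbered control and diabetic animals did not deviate together (correlations of -0.12 to 0.04). This gives no sign that the numbers are pairs but cannot exclude it. The block used 5 animals of each group.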

Other observations

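The named genes whose log2 signals across the 12 arrays were most like those of Cyp2e1, out of 7035 compared, were Paip2b (Pearson's r = 0.94), Atg13 (0.93), Sun1 (0.92), the triglyceride lipase gene Pnpla2 (0.90) and Syncrip-ps2 (0.89). These values describe 12 arrays and rest on diabetic 3 and 6, so high signals of these animals follow from how the genes were chosen. Pnpla2 had 1696.5 and 1936 in these animals, 744 to 1024 in control lung and 883 to 1038 in the other 5 diabetic animals. For Paip2b the values were 653 and 696, 403 to 459.7, and 389 to 442.

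The genes most like Cyp2a3 were Hspa1a (r = 0.93), Slain2 (0.92), Stip1 (0.92), Hsph1 (0.92) and Hhex (0.91). These values rest on diabetic 6, so its high signals again follow from how the genes were chosen. Hspa1a, the inducible chaperone HSP70, had 3672 in diabetic 6, 843 in diabetic 3, 640.4 to 762 in control lung and 644 to 1172 in the other 5 diabetic animals. Stip1, an adaptor between chaperones, had 1353 in diabetic 6, 598 in diabetic 3 and 598.5 to 828 in the others.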
